A study of Mus musculus with 24 samples.

Results

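Pericytes and vascular smooth muscle cells, together called mural cells, were followed in mouse hearts through 10 marker genes. The pericyte markers were Pdgfrb, Rgs5, Abcc9, Cspg4 and Notch3, and the smooth muscle markers were Acta2, Tagln, Myh11, Cnn1 and Mylk. They were taken by gene symbol from a table of 46078 genes, each symbol named 1 gene, and all 10 were among the 15456 genes with enough reads to be tested. The list was set by cell type, and no measured value entered the rule. It was chosen, however, with earlier results of these data known.

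RNA was sequenced from the apex of the ventricles of 24 male C57BL/6 mice, aged 10 weeks, at day 5. The animals formed 4 groups of 6. WT_PBS and WT_PYR hearts were wild type and had no diphtheria toxin. DTR_PBS and DTR_PYR hearts are labelled DTR and as injured through diphtheria toxin. PBS animals had the vehicle, and PYR animals had pyridostigmine, which inhibits cholinesterase, the enzyme that breaks down acetylcholine. DTR genotype and toxin always went together, so their effects cannot be told apart, and the sources used here do not say which cells carried the receptor. Each library has its own animal tag and was treated as 1 animal. The p-values weigh each difference against the spread between libraries within groups. In the main fit that spread was estimated over all 4 groups together, also those outside a comparison.

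Mural cells wrap the endothelial tube of blood vessels. Pericytes lie on capillaries and depend on platelet-derived growth factor (PDGF) from the endothelium, while smooth muscle cells ring the arteries and contract. Notch signals from the endothelium maintain both, and serum response factor (SRF) with its coactivator myocardin drives the contractile genes of smooth muscle. Several markers are shared with other cells: fibroblasts that become myofibroblasts after injury make the actin and transgelin of smooth muscle, and cardiomyocytes make the channel subunit encoded by Abcc9. In RNA from whole tissue, fewer cells of a type and less RNA per cell cannot be told apart.

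The libraries held from 1877914 counted reads (DTR_PBS 4) to 37842245 (DTR_PYR 5). Wild-type libraries scored -57.2 to -35.1 on the first principal component of all tested genes, and most DTR libraries scored 30.3 to 114. The exceptions were DTR_PYR 4, 5 and 6, whose scores of -35.4, -25.6 and -20.9 were close to those of wild-type hearts. Mouse Hbegf, at 23.3 ± 3.20 CPM (SD, n = 6) in WT_PBS and 134 ± 27.2 in DTR_PBS, was at 19.3, 23.3 and 25.8 CPM in those libraries. They are kept as labelled, and counts under pyridostigmine are given with and without them. The tags end in U or V. Of 6 libraries, 4 were U in each wild-type group and 2 in each DTR group, and the labels do not say what the letters mean. DTR_PYR 1 and 2 are U, and DTR_PYR 3 to 6, with the 3 libraries that stand apart, are V.

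Levels are counts scaled to a common library size (CPM), with TMM factors, which assume that most genes do not differ between libraries. Per kilobase of exon in WT_PBS, the mean level was 68.9 ± 44.4 CPM/kb for Rgs5, 52.4 ± 9.89 for Abcc9 and 37.8 ± 4.47 for Acta2 (SD, n = 6). Neighbours in this order overlapped between libraries. Pdgfrb followed at 24.7 ± 3.97 CPM/kb, Notch3 at 13.6 ± 1.63, Tagln at 10.1 ± 1.36, Cspg4 at 5.07 ± 0.878, Myh11 at 4.68 ± 0.849 and Mylk at 3.05 ± 0.110. Cnn1 was by far the rarest, at 0.485 ± 0.129 CPM/kb and 4 to 35 reads in a WT_PBS library. In DTR_PBS the order had changed: Acta2 led at 99.1 ± 40.9 CPM/kb, with no library as low as the highest for Rgs5, which followed at 42.3 ± 2.67. Abcc9 stood at 14 ± 4.64 CPM/kb, below Pdgfrb at 25.9 ± 2.78 and Tagln at 15.9 ± 2.22, but Abcc9 and Tagln overlapped between libraries.

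**Figure D1:**
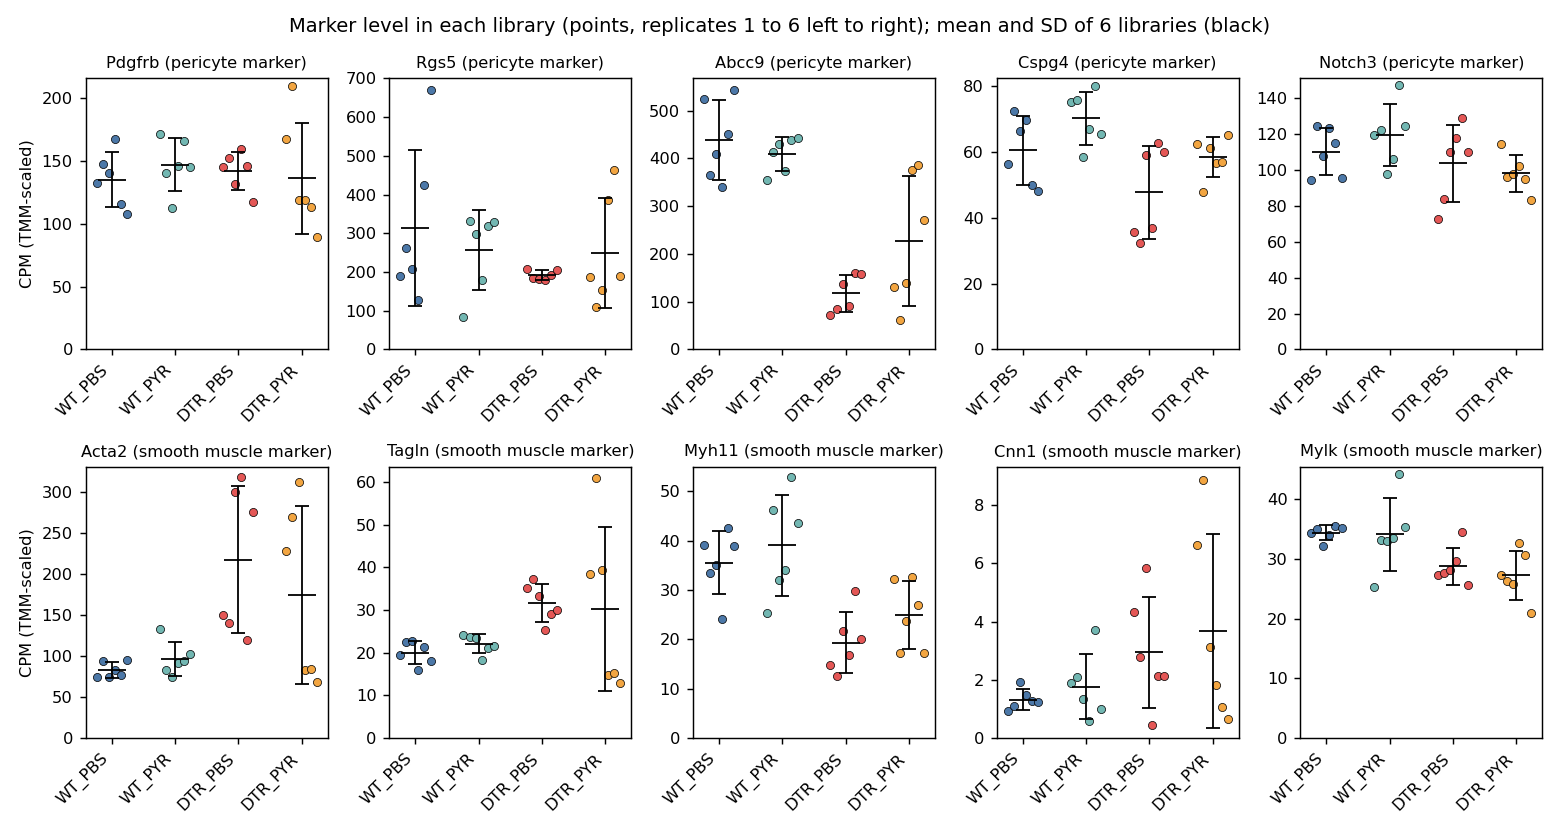
Level of each marker in every library (TMM-scaled CPM, linear axes from 0) by group, with each point 1 library, replicates 1 to 6 from left to right, and the mean and SD of the 6 libraries in black. All DTR_PBS points for Abcc9 (73.0 to 159 CPM) lie below all WT_PBS points (340 to 543 CPM), all DTR_PBS points for Acta2 and Tagln lie above those of WT_PBS, and the DTR_PYR points of these 3 genes spread widely. Of all tested genes 11% kept the PBS groups apart with lower and 11.2% with higher levels in DTR_PBS.

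The first comparison was injury under vehicle, DTR_PBS against WT_PBS. Of the 10 markers, 2 rose (Acta2 and Tagln), 2 fell (Abcc9 and Myh11) and 6 did not pass the test (edgeR quasi-likelihood test, Benjamini-Hochberg adjusted p under 0.05 over 15456 genes). Over all tested genes 42.9% passed, 21.3% higher and 21.6% lower, so 4 of 10 is close to the background. The pericyte markers gave 1 fall and 4 genes that did not pass, with a median log2 difference of -0.34. The smooth muscle markers gave 2 rises, 1 fall and 2 genes that did not pass, with a median of 0.67. The median of all tested genes was 0.01.

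Abcc9 encodes the sulfonylurea receptor subunit of ATP-sensitive potassium channels and lies at chromosome 6: 142587862 to 142702274 (GRCm38). Its level was lowest 340, median 430 and highest 543 CPM in WT_PBS, and lowest 73.0, median 114 and highest 159 CPM in DTR_PBS. Every DTR_PBS library was below every WT_PBS library, which was so for 11% of all tested genes. The gene fell by 1.90 on the log2 scale (SE 0.31, 95% interval -2.54 to -1.27, adjusted p = 5.42e-05 in edgeR), a level 3.74-fold lower. The difference was -2.34 among U libraries and -1.85 among V libraries. The pore partner of this subunit in mural cells is encoded by Kcnj8 and that in cardiomyocytes by Kcnj11. Kcnj8 fell from 50.9 ± 5.45 to 24 ± 6.37 CPM (SD, n = 6; log2 -1.09, adjusted p = 6.83e-05 in edgeR), and Kcnj11 fell from 121 ± 23.0 to 53.8 ± 29.5 CPM (log2 -1.17, adjusted p = 0.00555 in edgeR). How far mural cells and cardiomyocytes each account for the fall of Abcc9 was not tested.

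Pdgfrb, the receptor through which PDGF-B recruits pericytes, lies at chromosome 18: 61045150 to 61085061. It was at lowest 108, median 136 and highest 167 CPM in WT_PBS and at lowest 117, median 146 and highest 159 CPM in DTR_PBS. All 6 DTR_PBS libraries were inside the range of WT_PBS. The log2 difference was 0.07 (SE 0.17, 95% interval -0.27 to 0.41, adjusted p = 0.767 in edgeR). Notch3, the Notch receptor of mural cells, differed by as little: its median was 112 CPM in WT_PBS and 110 CPM in DTR_PBS, with a log2 difference of -0.09 (95% interval -0.37 to 0.19, adjusted p = 0.639 in edgeR). For both genes the intervals leave out a change of the size seen for Abcc9. These failures to pass the test do not show that either gene was unchanged.

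Rgs5 encodes a regulator of G-protein signalling and is among the most abundant pericyte transcripts. It was at lowest 127, median 235 and highest 671 CPM in WT_PBS and at lowest 180, median 188 and highest 208 CPM in DTR_PBS. The WT_PBS libraries spread around the narrow DTR_PBS range on both sides, with a coefficient of variation of 64.5% against 6.3%. The log2 difference was -0.70 (SE 0.37, 95% interval -1.45 to 0.05, adjusted p = 0.123 in edgeR). The share of reads on mitochondrial genes also spread in WT_PBS, with 25.6% in WT_PBS 6, which had the highest Rgs5, and 6.01% in WT_PBS 4, which had the lowest. The part of that share in the level of Rgs5 was not tested. Without WT_PBS 6 the Rgs5 difference was -0.33.

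Cspg4, a proteoglycan of the pericyte surface, was at lowest 48.0, median 61.3 and highest 72.5 CPM in WT_PBS and at lowest 32.3, median 47.9 and highest 62.6 CPM in DTR_PBS. Within DTR_PBS 3 libraries lay at 32.3 to 36.8 CPM, under all of WT_PBS, and the other 3 at 58.9 to 62.6 CPM, inside its range. The log2 difference was -0.34 (SE 0.16, 95% interval -0.67 to -0.01, adjusted p = 0.0916 in edgeR). It was -0.76 among U and -0.13 among V libraries. The difference passed without DTR_PBS 5 (log2 -0.43, adjusted p = 0.0354 in edgeR) and without DTR_PBS 6 (log2 -0.41, adjusted p = 0.0469 in edgeR). In those fits 43.3% and 44.2% of all tested genes passed. With total counts as scaling the Cspg4 difference was -0.03 (adjusted p = 0.906 in edgeR).

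Acta2, smooth muscle alpha-actin, is a classical target of SRF, which binds the CArG box, a motif of CC and GG around a core of 6 A or T bases. The 250 bases before the start of Acta2 in RefSeq (GRCm38.p6) were searched for it, with at most 1 other base allowed in the core. The search counts both strands at once, because the pattern reads the same on each. Acta2 held 2 matches, shown here on the gene's strand, 5′ to 3′, with the match in capitals, because they are the only matches in the markers searched. The upstream one lies at chromosome 19: 34255438 to 34255467, minus strand, and the match starts 84 bases before the RefSeq start. The downstream one lies at chromosome 19: 34255388 to 34255417, and its match starts 34 bases before that start.
Acta2 upstream CArG box: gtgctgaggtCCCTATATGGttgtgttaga
Acta2 downstream CArG box: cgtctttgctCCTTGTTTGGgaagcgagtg
At least 1 match was present in 8.59% and at least 2 in 0.67% of 32851 RefSeq windows of that length. The table of promoters had entries for 7 of the 10 markers, not for Pdgfrb, Tagln and Myh11, and the other 6 had no match in this window. A match is a description of the letters and not a measured binding site.

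Acta2 lies at chromosome 19: 34241090 to 34255336. Its level was lowest 74.2, median 79.8 and highest 95.9 CPM in WT_PBS, and lowest 120, median 214 and highest 318 CPM in DTR_PBS. All DTR_PBS libraries were above all WT_PBS libraries, which was so for 11.2% of all tested genes. Within DTR_PBS, 3 libraries lay at 120 to 151 CPM and 3 at 277 to 318 CPM. The gene rose by 1.39 on the log2 scale (SE 0.32, 95% interval 0.73 to 2.04, adjusted p = 0.00111 in edgeR), or 2.61-fold. The difference was 1.42 among U and 1.19 among V libraries.

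Tagln, transgelin, an actin-binding protein of smooth muscle, lies at chromosome 9: 45929628 to 45936058. It was at lowest 16, median 20.4 and highest 22.8 CPM in WT_PBS and at lowest 25.3, median 31.6 and highest 37.4 CPM in DTR_PBS. The groups did not overlap, which was so with higher levels for 11.2% of all tested genes. Tagln rose 1.60-fold (log2 0.67, SE 0.26, adjusted p = 0.0411 in edgeR). This call was close to the threshold: it was lost when any of WT_PBS 1, 4, 5 and 6 or DTR_PBS 1, 2 and 3 was left out, with adjusted p up to 0.0832 in edgeR. With only the PBS groups in the fit Tagln passed, as did 44.1% of all tested genes. The main fit also took its spread from DTR_PYR, where Tagln was at 30.3 ± 19.3 CPM (SD, n = 6). The part of that spread in the call was not tested. Tagln overlaps Pcsk7, on the opposite strand, over 108 of its 1988 exon bases (5.4%). The libraries carry no strand, so reads from that stretch cannot be told apart. In all, 7431 reads were counted for Tagln and 7653 for Pcsk7. Pcsk7 itself differed by -0.19 on the log2 scale (adjusted p = 0.208 in edgeR).

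Myh11, the smooth muscle myosin heavy chain, lies at chromosome 16: 14194527 to 14291408. It was at lowest 24.2, median 37.0 and highest 42.6 CPM in WT_PBS and at lowest 12.6, median 18.5 and highest 29.9 CPM in DTR_PBS. In 5 of 6 DTR_PBS libraries it was below all of WT_PBS. The gene fell by 0.88 on the log2 scale (SE 0.22, 95% interval -1.32 to -0.44, adjusted p = 0.00187 in edgeR), a level 1.84-fold lower, with -1.10 among U and -0.87 among V libraries. The change was thus opposite to that of Acta2 and Tagln in the same hearts.

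Mylk, the kinase that phosphorylates myosin light chain to start contraction, was at lowest 32.2, median 34.7 and highest 35.6 CPM in WT_PBS and at lowest 25.6, median 27.8 and highest 34.5 CPM in DTR_PBS. In 5 of 6 DTR_PBS libraries the level was below all of WT_PBS, but the log2 difference of -0.26 (SE 0.13, 95% interval -0.52 to 0.01) did not pass (adjusted p = 0.109 in edgeR). Cnn1, calponin, an actin-binding regulator of contraction, was at lowest 0.931, median 1.25 and highest 1.93 CPM in WT_PBS and at lowest 0.443, median 2.46 and highest 5.84 CPM in DTR_PBS. Its level in DTR_PBS 4 came from 1 read, and the other 5 libraries were above all of WT_PBS. The log2 difference was 1.23 (SE 0.52, adjusted p = 0.0587 in edgeR), and it passed in 5 of 22 fits: without DTR_PBS 4 (log2 1.39, adjusted p = 0.0347 in edgeR), with the tag letter as a term (log2 1.37, adjusted p = 0.0325 in edgeR), with total counts as scaling (1.60), with limma voom (1.31) and with only the 2 groups in the fit (1.24). Those 5 fits called 39.9% to 48.3% of all tested genes.

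**Figure D2:**
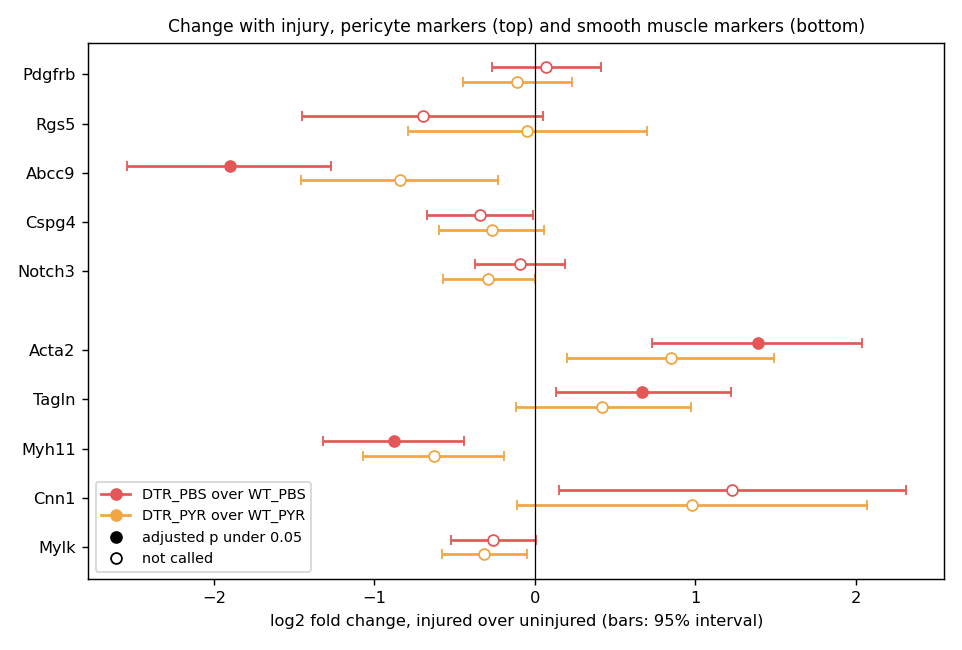
Log2 difference between DTR and WT libraries for each marker under PBS and under PYR, with 95% intervals from the edgeR model, 6 libraries in each group. Filled points passed at an adjusted p under 0.05 and open points did not. Under PBS Acta2 is at 1.39, Tagln at 0.67, Myh11 at -0.88 and Abcc9 at -1.90, and under PYR each of the 4 lies nearer to 0. The PYR values include DTR_PYR 4, 5 and 6. Without those libraries, a choice made after seeing the data, Acta2 was at 1.49, Tagln at 1.06 and Abcc9 at -1.88 under PYR. Myh11 did not pass in that fit. No marker passed the interaction test in edgeR.

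Ratios of 2 markers within a library do not depend on how libraries are scaled to each other. They are given as a description, without a test. The log2 ratio of Acta2 to Myh11 read counts was lowest 0.85, median 1.2 and highest 1.78 in WT_PBS and lowest 2.01, median 3.63 and highest 4.24 in DTR_PBS, with no overlap. For Tagln to Myh11 it was lowest -1.10, median -0.80 and highest -0.57 in WT_PBS and lowest -0.04, median 0.60 and highest 1.57 in DTR_PBS, again with no overlap. Among the pericyte markers, Abcc9 to Pdgfrb ran from 1.02 to 2.33 with a median of 1.75 in WT_PBS, and from -0.99 to 0.43 with a median of -0.36 in DTR_PBS. Notch3 to Pdgfrb, by contrast, overlapped: it ran from -0.48 to -0.01 in WT_PBS and from -1 to -0.09 in DTR_PBS. Rgs5 to Pdgfrb overlapped as well, from -0.40 to 2.64 in WT_PBS and from 0.18 to 0.81 in DTR_PBS. The ratios without overlap pair a marker that passed the test with one that did not or that moved the other way.

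**Figure D3:**
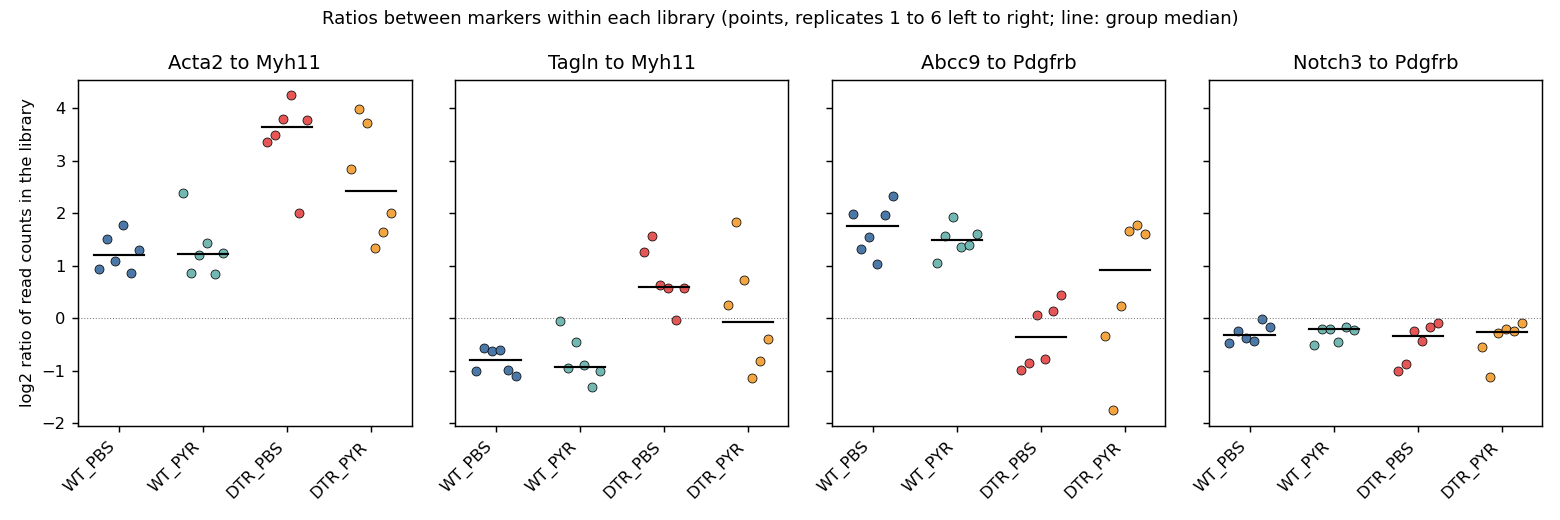
Log2 ratio of 2 markers within each library, by group, with each point 1 library and each line the group median. For Acta2 to Myh11 the WT_PBS points end at 1.78 and the DTR_PBS points start at 2.01, and for Abcc9 to Pdgfrb the DTR_PBS points end at 0.43 and the WT_PBS points start at 1.02.

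Of 15 further pericyte genes 9 fell, 2 rose and 4 did not pass under PBS, with a median log2 difference of -0.85. Over all tested genes 21.6% fell. With total counts as scaling, 7 of the 15 fell and 3 rose (median -0.46), while the median of all tested genes moved to 0.39. Those with the smallest p were Kcnj8, given above, Vtn and Colec11. Vtn, which encodes vitronectin, a matrix protein, fell from 42.2 ± 8.73 to 13.3 ± 6.06 CPM (SD, n = 6; log2 -1.67, adjusted p = 9.18e-05 in edgeR). Colec11, a secreted lectin, fell from 20.9 ± 1.63 to 9.42 ± 2.18 CPM (log2 -1.17, adjusted p = 0.000137 in edgeR). The 2 that rose were Anpep, a surface peptidase (log2 1.05), and Mcam, an adhesion molecule (log2 0.46), named here because they went the other way.

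Of 20 further genes listed for smooth muscle, called contractile genes here, 4 rose, 4 fell and 12 did not pass, with a median of -0.25. Of all tested genes 21.3% rose and 21.6% fell, so these counts are close to the background. The list also holds genes outside the contractile apparatus, such as Aoc3, Sncg, Itga8 and Kcnmb1. Cald1, caldesmon, which binds actin and myosin, rose from 40.6 ± 6.17 to 121 ± 56.8 CPM (SD, n = 6; log2 1.59, adjusted p = 0.000153 in edgeR). Flna, the actin cross-linker filamin A, rose from 209 ± 14.8 to 501 ± 167 CPM (log2 1.26, adjusted p = 0.000412 in edgeR). Smtn, smoothelin, a cytoskeletal protein of contractile smooth muscle, fell from 272 ± 75.3 to 119 ± 45 CPM (log2 -1.19, adjusted p = 0.000434 in edgeR). Some of these genes, such as Tpm1, Des and Casq2, are also abundant in cardiomyocytes. The WT_PBS mean of Smtn was also far above those of Myh11 (35.5 CPM) and Tagln (20 CPM). The part of cardiomyocytes in the changes of Smtn and the other genes on this list was not tested.

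Of the 7 genes for SRF, its coactivators and related regulators, called SRF genes here, 1 fell and 6 did not pass, with a median of -0.13. Over all tested genes 21.6% fell and 21.3% rose, and 7 genes are too few to call the list short of changes. The one that fell was Gata6, a transcription factor of vascular smooth muscle and cardiac cells (from 101 ± 11.5 to 63.6 ± 18.8 CPM (SD, n = 6), log2 -0.67, adjusted p = 0.00757 in edgeR). Srf and Myocd each had a log2 difference of -0.19 and did not pass. With total counts as scaling, 1 of the 7 genes rose and 0 fell, with a median of 0.23. In that fit 48.3% of all tested genes passed, and their median was 0.39.

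In the PDGF family, 2 of 5 genes rose, 1 fell and 2 did not pass, with a median of -0.31. The share of all tested genes was 21.3% for rises and 21.6% for falls. The ligand gene Pdgfc rose from 1.74 ± 0.453 to 5.14 ± 1.36 CPM (SD, n = 6; log2 1.52, adjusted p = 0.000354 in edgeR). Pdgfra, the receptor of fibroblasts, rose from 38.6 ± 6.90 to 79.6 ± 33.1 CPM (log2 1.04, adjusted p = 0.001 in edgeR). Pdgfb, the endothelial ligand of the receptor encoded by Pdgfrb, fell from 75.2 ± 13.3 to 50.9 ± 12 CPM (log2 -0.57, adjusted p = 0.00459 in edgeR).

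Of 14 Notch ligands, receptors and targets other than Notch3, 7 fell, 2 rose and 5 did not pass, with a median of -0.51. By comparison, 21.6% of all tested genes fell and 21.3% rose. Heyl, a target of Notch in mural cells, fell from 43.4 ± 8.82 to 24.1 ± 3.30 CPM (SD, n = 6; log2 -0.85, adjusted p = 0.000126 in edgeR). The ligand gene Jag2 fell from 69.3 ± 13.3 to 31.0 ± 11.0 CPM (log2 -1.17, adjusted p = 0.000153 in edgeR). The receptor gene Notch2 rose from 38.7 ± 5.29 to 74.5 ± 14.2 CPM (log2 0.94, adjusted p = 1e-04 in edgeR).

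**Figure D4:**
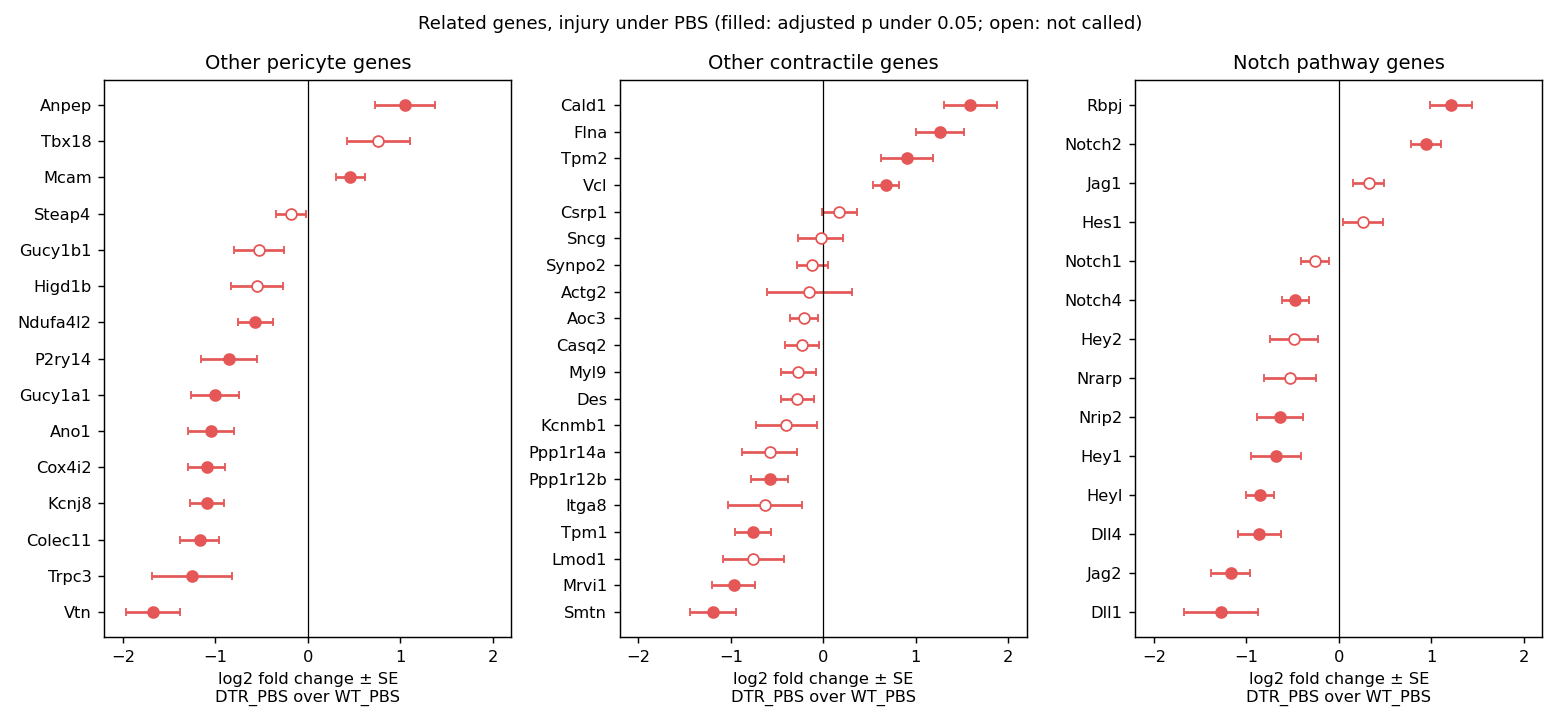
Log2 fold change of DTR_PBS over WT_PBS, with its SE, for 15 other pericyte genes, 20 other contractile genes and 14 Notch pathway genes, with filled points at an adjusted p under 0.05 in edgeR and open points not called. Other pericyte genes have 9 filled points below 0 and 2 above (median -0.85), contractile genes have 4 filled points on each side, and Notch genes have 7 filled points below 0 and 2 above. Of all tested genes 21.3% were called higher and 21.6% lower.

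Markers of other cell types moved with injury under PBS, where 21.3% of all tested genes rose and 21.6% fell. Of 10 genes of activated fibroblasts 9 rose and 1 did not pass (median log2 3.29), and their summed level was 469 to 1100 CPM in WT_PBS and 3460 to 9330 CPM in DTR_PBS. Of 8 genes of resting fibroblasts 2 rose, 2 fell and 4 did not pass (median 0.01), with sums of 1780 to 2720 CPM in WT_PBS and 881 to 1540 in DTR_PBS. Of 10 endothelial genes 8 fell and 2 did not pass (median -0.61), with sums of 1260 to 1560 CPM and 727 to 976 CPM. Of 11 cardiomyocyte genes 8 fell and 3 did not pass (median -0.89), with sums of 98900 to 111000 CPM and 28500 to 77100 CPM. Of 8 macrophage genes 7 rose and 1 did not pass (median 2.35), with sums of 197 to 262 CPM and 504 to 1850 CPM. Of 5 Schwann cell genes 4 were tested, 1 rose (none without DTR_PBS 4) and 3 did not pass (median -0.03), with sums of 8.99 to 13.4 CPM and 9.74 to 19.1 CPM. No gene of these lists was at 0 in all libraries. The sum of the 5 pericyte markers was 827 to 1470 CPM in WT_PBS and 534 to 690 CPM in DTR_PBS, and that of the 5 smooth muscle markers was 158 to 189 CPM and 216 to 391 CPM. Sums follow the most abundant genes and do not stand for each gene. Mean Abcc9 went from 439 to 117 CPM, Rgs5 from 313 to 192 and Cspg4 from 60.5 to 47.7. Pdgfrb was at 135 and 142 CPM and Notch3 at 110 and 104. Acta2 went from 83.1 to 218 CPM, with Tagln and Cnn1 also higher, but Myh11 from 35.5 to 19.3 and Mylk from 34.4 to 28.8. Among resting fibroblast genes Gsn went from 1640 to 667 CPM. The part of these other cell types in the levels of Acta2, Tagln, Abcc9 and the other markers was not tested.

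The second comparison was injury under pyridostigmine, DTR_PYR against WT_PYR. None of the 10 markers passed the edgeR test, with adjusted p from 0.0514 to 0.947, and 5 had an unadjusted p under 0.05: Abcc9, Notch3, Acta2, Myh11 and Mylk. Over all tested genes 12.2% passed, 8.06% higher and 4.17% lower, and 29.5% had an unadjusted p under 0.05. The DESeq2 Wald test called 3 markers (Abcc9, Acta2 and Myh11), with 18.1% of all tested genes called. The limma voom fit called 1 (Abcc9), with 5.09% of all tested genes called. The edgeR fit with the tag letter as a term, which is uneven between WT and DTR, also called 3 (Abcc9, Acta2 and Myh11), with 18.9% of all tested genes called. The median log2 difference was -0.27 for the pericyte markers and 0.42 for the smooth muscle markers, against 0.04 for all tested genes.

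No marker kept DTR_PYR and WT_PYR libraries fully apart, which 2.19% of all tested genes did with higher and 3.18% with lower levels. Acta2 was at lowest 74.4, median 93.2 and highest 133 CPM in WT_PYR, and at 229, 271 and 313 CPM in DTR_PYR 1, 2 and 3 but at 82.8, 84.2 and 68.7 CPM in DTR_PYR 4, 5 and 6. Tagln was at lowest 18.3, median 22.6 and highest 24.2 CPM in WT_PYR, at 38.4, 61.0 and 39.4 CPM in DTR_PYR 1, 2 and 3 and at 14.7, 15.3 and 13 CPM in DTR_PYR 4, 5 and 6. Its level was therefore above all of WT_PYR in 3 libraries and below all of WT_PYR in the other 3. Over all 6 libraries the log2 difference was 0.85 for Acta2 (SE 0.31, 95% interval 0.20 to 1.49, adjusted p = 0.0744 in edgeR) and 0.42 for Tagln (SE 0.27, 95% interval -0.12 to 0.97, adjusted p = 0.295 in edgeR). By tag letter it was 1.25 among U and 0.49 among V libraries for Acta2, and 1.18 and -0.35 for Tagln. In DTR_PYR only libraries 1 and 2 are U, and libraries 4, 5 and 6 are all V. Differences by letter under pyridostigmine therefore also carry the division of these libraries.

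Abcc9 was at lowest 356, median 422 and highest 443 CPM in WT_PYR, at 131, 61.8 and 139 CPM in DTR_PYR 1, 2 and 3 and at 375, 386 and 270 CPM in DTR_PYR 4, 5 and 6. DTR_PYR 4 and 5 were inside the wild-type range and the other 4 libraries below it. The log2 difference was -0.84 (SE 0.30, 95% interval -1.46 to -0.23, adjusted p = 0.0621 in edgeR), with -2.15 among U and -0.63 among V libraries. Kcnj8 fell by 0.65 on the log2 scale (adjusted p = 0.022 in edgeR), and Kcnj11 had a difference of -0.77 (adjusted p = 0.109 in edgeR).

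Myh11 did not follow that division of the DTR_PYR libraries. It was at lowest 25.3, median 38.8 and highest 52.9 CPM in WT_PYR, at 32.2, 17.2 and 23.8 CPM in DTR_PYR 1, 2 and 3 and at 32.6, 26.9 and 17.1 CPM in DTR_PYR 4, 5 and 6. The log2 difference was -0.63 (SE 0.21, 95% interval -1.07 to -0.19, adjusted p = 0.0514 in edgeR). Mylk, with a median of 33.4 CPM in WT_PYR and 26.8 CPM in DTR_PYR, had a log2 difference of -0.32 (adjusted p = 0.0996 in edgeR), and Notch3, with medians of 121 and 96.9 CPM, had -0.29 (adjusted p = 0.166 in edgeR). Cnn1 had a log2 difference of 0.98 (adjusted p = 0.214 in edgeR), with 6.62, 8.88 and 3.12 CPM in DTR_PYR 1, 2 and 3 and 1.84, 1.07 and 0.641 CPM in DTR_PYR 4, 5 and 6. Its difference was 2.28 among U and -0.21 among V libraries, while that of Myh11 was -0.67 and -0.65.

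Pdgfrb had a median of 146 CPM in WT_PYR and 119 CPM in DTR_PYR, where DTR_PYR 2 was highest at 210 CPM and DTR_PYR 6 lowest at 89.0 CPM. Its log2 difference was -0.11 (adjusted p = 0.686 in edgeR). Rgs5 ran from 82.6 to 333 CPM in WT_PYR and from 109 to 463 CPM in DTR_PYR and differed by -0.05 (adjusted p = 0.947 in edgeR). Cspg4 had medians of 71.0 and 59.0 CPM and differed by -0.27 (adjusted p = 0.273 in edgeR).

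Leaving out DTR_PYR 4, 5 and 6 gave 4 calls among the 10 markers, against 33% of all tested genes. Acta2 (log2 1.49), Tagln (1.06) and Cnn1 (1.83) rose and Abcc9 fell (log2 -1.88). Those 3 libraries were left out because of their overall profile, so the larger response is built into that choice. Their summed activated fibroblast level was 962, 1200 and 1210 CPM, against 580 to 1080 CPM in WT_PYR and up to 9790 CPM in DTR_PYR.

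Under pyridostigmine 4.17% of all tested genes fell and 8.06% rose. Of the 15 further pericyte genes 5 fell and 10 did not pass, with a median of -0.49. Those with the smallest p were Cox4i2, a subunit of cytochrome c oxidase (log2 -0.87, adjusted p = 0.00836 in edgeR), Ano1, a chloride channel (log2 -0.96, adjusted p = 0.0157 in edgeR), and Ndufa4l2, a mitochondrial protein (log2 -0.72, adjusted p = 0.0187 in edgeR). Of the contractile genes 2 rose, 1 fell and 17 did not pass (median -0.19): Vcl, vinculin (log2 0.57), and Cald1 (0.90) rose, and Aoc3, an amine oxidase of smooth muscle, fell (-0.59). None of the 7 SRF genes passed (edgeR, median -0.09), and Mkl2, a coactivator of SRF, had the smallest p (log2 -0.26, adjusted p = 0.167 in edgeR). Of the PDGF genes Pdgfra rose (log2 0.78, adjusted p = 0.033 in edgeR) and 4 did not pass (median -0.02). Of the Notch genes 4 fell and 10 did not pass (median -0.38), led by Heyl (log2 -0.72), Jag2 (-0.79) and Notch4 (-0.47).

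These counts rest in part on DTR_PYR 4, 5 and 6. With those libraries left out, 33% of all tested genes passed (2683 higher and 2360 lower). Without them 9 of 15 pericyte genes fell and 2 rose (median -0.80), 4 of 20 contractile genes rose and 2 fell (median -0.02), and 1 of 7 SRF genes rose and 1 fell (median 0.07). Of 5 PDGF genes 2 rose (median -0.20), and of 14 Notch genes 6 fell and 2 rose (median -0.50).

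Among markers of other cell types under pyridostigmine, 9 of 10 genes of activated fibroblasts rose (median 2.31), as did 7 of 8 macrophage genes (median 1.61) and 1 of 8 genes of resting fibroblasts (median 0.15). The shares of all tested genes were 8.06% for rises and 4.17% for falls. Of 10 endothelial genes 4 fell (median -0.41), as did 1 of 11 cardiomyocyte genes (median -0.39), and none of 4 Schwann cell genes passed (edgeR, median -0.43). The remaining genes of these lists did not pass. Without DTR_PYR 4, 5 and 6, 9 genes of activated fibroblasts rose (median 3.10), 7 macrophage genes rose (median 2.18), and 2 genes of resting fibroblasts rose and 2 fell (median 0.07). In that fit 8 endothelial genes fell (median -0.73), 7 cardiomyocyte genes fell (median -0.84) and no Schwann cell gene passed in edgeR (median -0.56). The same fit called 33% of all tested genes.

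The third comparison was pyridostigmine in injured hearts, DTR_PYR against DTR_PBS. No marker passed in edgeR, DESeq2 or limma voom, and only Abcc9 had an unadjusted p under 0.05 in edgeR. No gene of the 15456 passed in edgeR (0%), while 2991 had an unadjusted p under 0.05, and DESeq2 called 244 and limma voom 1765. Abcc9 had a median of 114 CPM in DTR_PBS and 205 CPM in DTR_PYR, and the groups overlapped. Its log2 difference was 0.96 (SE 0.30, 95% interval 0.34 to 1.58, adjusted p = 0.134 in edgeR), and it passed when DTR_PYR 2, the library with the lowest Abcc9, was left out (log2 1.15, adjusted p = 0.0127 in edgeR), as did 15.6% of all tested genes in that fit. Without DTR_PYR 4, 5 and 6 it was -0.08. The other 9 markers differed by -0.32 (Acta2) to 0.38 (Myh11), and the median was 0.29 for the pericyte and -0.07 for the smooth muscle markers, against -0.01 for all tested genes. The 95% interval was -0.96 to 0.32 for Acta2, -0.65 to 0.44 for Tagln and -0.06 to 0.83 for Myh11.

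The fourth comparison was pyridostigmine in uninjured hearts, WT_PYR against WT_PBS. No marker passed in edgeR (0% of all tested genes), DESeq2 or limma voom, none had an unadjusted p under 0.05 in edgeR, and 3.11% of all tested genes did. Differences ran from -0.28 for Rgs5 to 0.41 for Cnn1, with adjusted p = 0.998 in edgeR for each marker. The tightest interval was that of Mylk, -0.27 to 0.25, and the widest that of Cnn1, -0.70 to 1.51. The median was 0.12 for the pericyte and 0.15 for the smooth muscle markers, against -0.01 for all tested genes. In both comparisons with pyridostigmine none of the genes on the other lists passed in edgeR.

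Whether the effect of pyridostigmine differed between injured and uninjured hearts, which is the same contrast as whether injury differed between PYR and PBS, was tested as an interaction. No marker passed in edgeR (0% of all tested genes; adjusted p from 0.577 to 0.941). Abcc9 had the largest value, 1.06 (SE 0.42, unadjusted p = 0.0181, adjusted p = 0.577 in edgeR), and was the only marker with an unadjusted p under 0.05, as were 7.96% of all tested genes. Without DTR_PYR 4, 5 and 6 its interaction was 0.02. A call under PBS that is missing under PYR is thus not shown to be a difference between the treatments.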

How the data were processed

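The authors deposited raw counts per gene for 24 libraries, used here, and a filtered, depth-normalised signal table, which served only as a check: its values were within 0.035 of the deposited counts over median-ratio size factors. Tools and build in the submitters' processing notes are TopHat2 2.1.1, TopHat, Bowtie2, HTSeq, edgeR, DESeq and GRCm38. Which tool did what, the other versions and the annotation release were not given in the sources used here. Libraries were polyadenylated, single-end and without strand, per the labels' protocols.

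The filter kept the 15456 genes that exceeded 0.5 CPM in 6 libraries or more. Counts were TMM-scaled and fitted with edgeR's quasi-likelihood test, with 1 coefficient per group and all 24 libraries. Two-sided p-values were adjusted by Benjamini-Hochberg over all tested genes, and 0.05 was the threshold. Log2 CPM used a prior count of 2. The DESeq2 Wald test and limma voom were alternatives (R 4.3.3, edgeR 4.0.16, limma 3.58.1, DESeq2 1.42.0). Scripts were tested on simulated data. Overlapping genes came from the GENCODE vM21 annotation, and promoter sequences from RefSeq (GRCm38.p6).

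The markers, gene lists and tests were chosen with earlier results of these data known. All 10 markers are described in each comparison. Of each list of related mural cell genes (pericyte, contractile, SRF, PDGF and Notch) the 3 called genes with the smallest p are named, or the gene with the smallest p where none passed. Kcnj11, Pcsk7, Hbegf, Anpep, Mcam, Srf and Myocd were named after their values were seen. Depth limits rare genes most: Cnn1 had 692 reads in all.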

Additional observations from a re-analysis of the deposited data

How the results depend on the processing

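Injury under PBS gave 4 called markers, and 3 to 5 when 1 library was left out. Of all tested genes 42.9% were called, and 37% to 44.2% when 1 library was left out. Abcc9, Acta2 and Myh11 were called in all 21 alternatives and Tagln in 13, with adjusted p from 0.00113 to 0.156. Across those alternatives 22.2% to 48.3% of all tested genes were called. Total counts as scaling moved the median of all tested genes from 0.01 to 0.39, turned Notch3 to 0.25 and Mylk to 0.11, and brought Cspg4 to -0.03. Falls under PBS went from 7 to 4 among Notch genes (and rises from 2 to 3), from 8 to 4 among endothelial genes and from 9 to 7 among pericyte genes. Over all tested genes falls went from 3341 to 1756 and rises from 3293 to 5705. The 1 fall among PDGF genes was lost, and SRF genes had 1 rise in place of 1 fall. List medians became 0.08 for contractile, 0.23 for SRF and 0.01 for PDGF genes. It also turned, under PYR, Pdgfrb to 0.08 and Rgs5 to 0.05, in uninjured hearts Mylk to 0.06 and in the interaction Cspg4 to -0.09.

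For injury under PYR, where no marker was called, DESeq2 size factors gave 1 call (Myh11; 12.6% of all tested genes), total counts 2 (Acta2 and Abcc9; 14.7%), the DESeq2 Wald test 3 (18.1%), limma voom 1 (5.09%) and the tag letter as a term 3 (18.9%). Leaving out 1 library gave 0 to 3 calls: 3 without DTR_PYR 4 (17.6% of all tested genes), 2 without DTR_PYR 5 (16.1%), 1 without DTR_PYR 6 (15.4%) and 2 without WT_PYR 1 (8.06%). For pyridostigmine in injured hearts it gave 0 to 1, and for pyridostigmine in uninjured hearts and the interaction 0. In injured hearts Cnn1 was -0.76 with limma voom and -0.01 with the tag letter.

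Leaving out 1 library also moved some differences that had not passed across 0. Under PYR, Rgs5 ran from -0.32 to 0.11. In injured hearts Pdgfrb ran from -0.23 to 0.04, Tagln from -0.44 to 0.05 and Cnn1 from -0.30 to 0.43. In uninjured hearts Rgs5 ran from -0.45 to 0.09 and Mylk from -0.10 to 0.06. In the interaction Cspg4 ran from -0.02 to 0.17, Cnn1 from -0.71 to 0.08 and Mylk from -0.13 to 0.03.

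The 2 alternatives that follow were chosen after seeing the data. Without DTR_PYR 4, 5 and 6, injury under PYR gave 4 calls and Pdgfrb 0.17. The effect of pyridostigmine in injured hearts was then 0.22 for Pdgfrb, -0.36 for Rgs5, -0.08 for Abcc9, 0.32 for Acta2 and 0.54 for Tagln. The interaction was 0.02 for Abcc9, 0.10 for Pdgfrb, -0.07 for Rgs5, 0.10 for Acta2, 0.39 for Tagln and 0.59 for Cnn1. Without the 4 uninjured libraries whose tag numbers are below 300, a series that no injured animal has, Tagln was not called, Rgs5 fell under PBS (log2 -1.03, adjusted p = 0.0179 in edgeR) and Mylk was 0.08 in uninjured hearts. Under PBS that fit called 35.8% of all tested genes. In that fit 0 in place of 5 pericyte genes (median -0.53) and 1 in place of 4 Notch genes (median -0.39) fell under PYR, 2 in place of 7 macrophage genes rose, and 2.15% in place of 12.2% of all tested genes were called. The cause of these shifts was not tested. No paired analysis was possible because replicate numbers follow accession order and the animal tags pair nothing.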

Other observations

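Within groups some pairs of markers varied together and others in opposite directions. Over the 10 pericyte pairs r ran from -0.73 to 0.63 (median 0.03), and over the 10 smooth muscle pairs from -0.19 to 0.74 (median 0.08). Over the 25 pairs with a marker from each set it ran from -0.82 to 0.60 (median 0.12). A mean profile therefore does not stand for each marker. The genes most like that mean were found by the correlation of log2 CPM, less its group mean, with the mean profile of the 5 pericyte or the 5 smooth muscle markers over 24 libraries. This is a description without a test. The libraries share depth and scaling, and DTR_PYR 1, 2 and 3 differ from DTR_PYR 4, 5 and 6 within their group. For the pericyte mean these genes were Thbd, which encodes thrombomodulin of the endothelium (r = 0.79, rho = 0.75), Letm1 (r = 0.78, rho = 0.69), Ano1 (r = 0.78, rho = 0.74), Ltbp4 (r = 0.77, rho = 0.72) and Ushbp1 (r = 0.77, rho = 0.76). Without the 2 libraries farthest from the median of the profile, r was 0.71, 0.66, 0.73, 0.66 and 0.72 in that order. For the smooth muscle mean they were Wisp2 (r = 0.78, rho = 0.60), Llph (r = 0.75, rho = 0.64), Mdn1 (r = 0.74, rho = 0.78), Snx30 (r = 0.72, rho = 0.53) and Aen (r = 0.72, rho = 0.64), and r was 0.60, 0.58, 0.65, 0.45 and 0.62 without the 2 farthest libraries.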
